A study of Homo sapiens with 6 samples.

Results

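The 10 genes described here are ligands, receptors, transcription factors and target genes of Wnt signalling, measured in a human melanoma cell line that carried either a hairpin against PRAME mRNA or a control hairpin. They were chosen by symbol: the ligands WNT5A and WNT5B with the receptors ROR1 and ROR2, which are treated as the WNT5A-ROR genes, and AXIN2, NKD1, DKK1, LEF1, TCF7 and TCF7L1, which are treated as the beta-catenin genes. All 10 were found among the 40895 gene identifiers of the count files. PRAME encodes a cancer-testis antigen that many melanomas express. The cells were A375SM, a metastatic derivative of A375 labelled as melanoma cells from skin, and polyA RNA was sequenced as read pairs of 150 bases in 6 libraries. In 3 libraries the cells were labelled shPRAME and in 3 shCtrl, and both groups carried the genotype label WT and the batch label 1. The sources used here do not give the number or sequence of the hairpins, nor do they say whether the transduced cells were a clone or a pool.

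Wnt proteins are secreted lipid-modified ligands that signal through several branches. In the beta-catenin branch, a ligand that binds a Frizzled receptor and LRP5 or LRP6 stops the destruction complex of AXIN, APC and GSK3 from degrading beta-catenin, which then acts with the DNA-binding proteins LEF1, TCF7, TCF7L1 and TCF7L2. In the other branches, WNT5A and related ligands act through ROR receptors and Frizzled proteins on cell polarity, movement and calcium, without beta-catenin. In melanoma WNT5A is best known for its link to invasive cell states, whereas beta-catenin signalling is linked to the melanocytic programme around MITF.

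PRAME, the targeted gene, had 1803, 1993 and 1857 counts in the shPRAME libraries, against 5623, 5356 and 5083 counts in the shCtrl libraries. On the CPM scale, counts scaled to library size with TMM factors, shPRAME cells held 34.2% of the shCtrl level (edgeR adjusted p = 4.85e-17). Libraries held 30842788 to 34107332 counts. Of 15954 genes with enough counts to test, 11875 were called at an adjusted p under 0.05, 6008 higher and 5867 lower in shPRAME. The labels call the samples replicates without saying that each was a separate transduction, so p-values reflect only how far these libraries scatter, which can be technical scatter. Of the melanocytic markers, SOX10, a neural crest factor, averaged 275 ± 1.48 CPM in shPRAME and 266 ± 7.95 CPM in shCtrl (SD, n = 3 each, as throughout), and was not called. MITF averaged 37.6 ± 0.740 CPM in shPRAME and 44.6 ± 1.38 CPM in shCtrl. S100B, a calcium-binding protein of the lineage, averaged 28.2 ± 1.26 CPM in shPRAME and 54.0 ± 0.629 CPM in shCtrl (edgeR adjusted p = 9.43e-13). S100A1 and MIA were higher, so that of 5 tested melanocytic markers 2 were higher and 2 lower. TYR had no count in any library, and PMEL and DCT, further pigment genes, stayed under 0.3 CPM on average. Fibroblast markers summed to 88.0 to 95.2 CPM in shPRAME and 112.5 to 116.2 CPM in shCtrl, a sum led by PDGFRB and FAP, which were lower, while 5 of the 7 tested genes were higher. Several of these were at or near 0 in shCtrl: COL1A2 had 718, 735 and 704 counts in shPRAME and 0 in each shCtrl library, LUM 303, 342 and 347 counts in shPRAME and 0, 1 and 0 in shCtrl, and COL3A1 103, 73 and 80 counts in shPRAME and 2, 0 and 1 in shCtrl. Leukocyte markers summed to 72.3 to 74.3 CPM in shPRAME and 43.0 to 45.4 CPM in shCtrl, mostly CD68. PTPRC had 36, 29 and 27 counts in shPRAME and 0 in each shCtrl library, and LYZ 44, 39 and 48 counts in shPRAME and 4, 2 and 1 in shCtrl. Keratinocyte markers, nearly all KRT10, summed to 23.4 to 24.6 CPM in shPRAME and 29.2 to 30.6 CPM in shCtrl. Endothelial markers summed to 3.01 to 3.85 CPM in shPRAME and 0.292 to 0.946 CPM in shCtrl, with TEK at 77, 99 and 105 counts in shPRAME and 1 in each shCtrl library. Of the listed markers, TP63 and KRT5 (keratinocytes), CD3E (T cells) and CDH5 and CLDN5 (endothelium) were among those at 0 in all 6 libraries. Others had a few counts per library: KRT14 6 to 16, PECAM1 2 to 13, VWF 2 to 7, KDR 2 to 14 and CD14 5 to 10. KRT15 was called lower, with 4, 6 and 6 counts in shPRAME and 53, 32 and 37 in shCtrl. Markers of other cell types thus moved with the groups, in the direction of ROR1 for COL1A2, LUM, COL3A1, PTPRC, LYZ and TEK, and their part in the results below was not tested.

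Of the 10 genes, 9 had enough counts to test, and 8 of them were called: WNT5B, ROR1, DKK1, LEF1 and TCF7L1 were higher in shPRAME, and WNT5A, AXIN2 and NKD1 were lower. TCF7 was tested and not called, and ROR2 had no count in any library. The background was 74.4% called, 37.7% higher and 36.8% lower, so 8 of 9 is not a result about the list. Groups did not overlap in CPM for 8 of the 9 tested genes, beside 76.5% of all tested genes. The filter on low counts asked for 3 libraries at 0.297 CPM or more. DKK1 met it with its shPRAME libraries and no shCtrl library and AXIN2 with its shCtrl libraries and no shPRAME library, so these 2 genes had to differ. ROR1 and WNT5B met it with 3 shPRAME libraries and 1 shCtrl library each, so their entry into the test also leaned on the higher group. Among the WNT5A-ROR genes 2 were higher, 1 was lower and 1 could not be tested. Among the beta-catenin genes 3 were higher, 2 were lower and 1 was not called. Both branches therefore held genes of both directions, and the branches themselves were not compared by a test. The median log2 fold change of the 9 tested genes was 0.455, beside 0.006 for all tested genes. A called change of at least 2-fold was reached by 4 genes upward (ROR1, DKK1, WNT5B and TCF7L1) and by 2 downward (NKD1 and AXIN2). Over all tested genes, 18.6% were called and at least 2-fold apart, 10.1% higher and 8.43% lower.

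**Figure D1:**
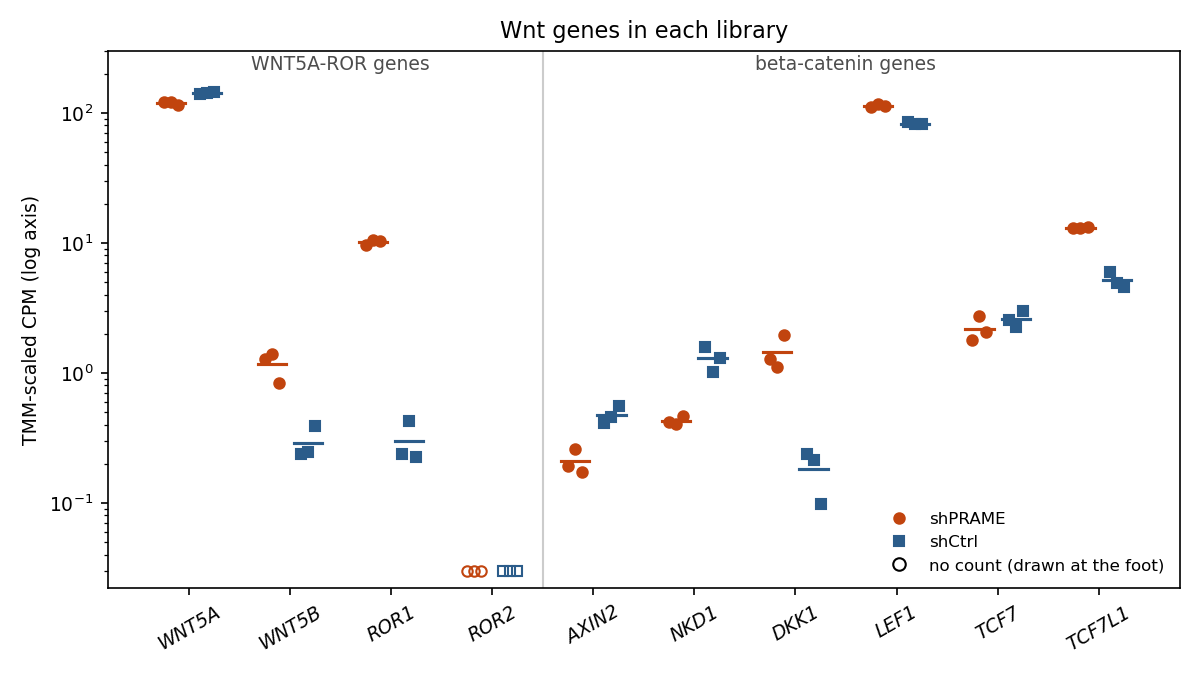
Level of each of the 10 genes in every library, in TMM-scaled CPM on a log axis, with shPRAME libraries as circles and shCtrl libraries as squares. Short lines are means of 3 libraries and open symbols at the foot mark a count of 0. ROR1 averaged 10.2 CPM in shPRAME and 0.297 CPM in shCtrl, and TCF7 is the tested gene whose groups overlap.

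WNT5A, the ligand that binds ROR receptors, was the most abundant WNT ligand in both groups and was slightly lower in shPRAME. WNT5A (gene identifier 7474, chromosome 3, 55465715 to 55505263, GRCh38) had 120.1, 120.6 and 115.2 CPM in shPRAME, against 140.6, 141.2 and 144.2 CPM in shCtrl. All 3 shPRAME libraries lay below all 3 shCtrl libraries. The log2 fold change was -0.26 with a standard error of 0.0277 (edgeR adjusted p = 1.96e-07), which is 1.197-fold lower in shPRAME with a 95% interval of 1.15 to 1.25. Tested against a fold of 1.2 the drop was not called (edgeR adjusted p = 0.461), and 63.4% of all tested genes had a larger absolute fold change. In bulk RNA, fewer cells that express a gene and less RNA per cell cannot be told apart, here and for every gene below.

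WNT5B, the closest relative of WNT5A, was higher in shPRAME at a much lower level. It had 40, 48 and 29 counts in shPRAME, against 8, 8 and 12 counts in shCtrl (chromosome 12, 1617056 to 1647212), which is 1.28, 1.39 and 0.840 CPM in shPRAME against 0.237, 0.245 and 0.389 CPM in shCtrl. The groups did not overlap, and the third shPRAME library was the lowest of its group. WNT5B had a log2 fold change of 2.01 with a standard error of 0.302 (edgeR adjusted p = 1.26e-05), 4.02-fold higher with a 95% interval of 2.58 to 6.26. The 2 WNT5 ligands thus went in opposite directions. Per kb of their longest coding transcript, WNT5A stood at 19.2 ± 0.482 CPM per kb in shPRAME and 23.0 ± 0.312 CPM per kb in shCtrl. WNT5B stood at 0.508 ± 0.127 CPM per kb in shPRAME and 0.126 ± 0.0372 CPM per kb in shCtrl, so the rise of WNT5B was small beside the drop of WNT5A in absolute terms.

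ROR1, a receptor with a tyrosine kinase-like domain that binds WNT5A, showed the largest change of the 10 genes. ROR1 (gene identifier 4919, chromosome 1, 63774017 to 64181498) had 303, 362 and 359 counts in shPRAME, against 8, 14 and 7 counts in shCtrl. On the CPM scale these were 9.69, 10.5 and 10.4 in shPRAME, against 0.237, 0.428 and 0.227 in shCtrl. Each shPRAME library lay far above each shCtrl library, and shCtrl cells were close to the floor of 3 counts, which is 0.0880 to 0.0973 CPM per library. That floor covers counting error only. The log2 fold change was 5.08 with a standard error of 0.166 (edgeR adjusted p = 2.65e-14), 33.8-fold higher with a 95% interval of 26.5 to 43.2. Only 1.89% of all tested genes had a larger absolute fold change. The antisense gene ROR1-AS1, which shares 19350 bases with ROR1, had 2, 2 and 3 counts in shPRAME and 0, 0 and 1 in shCtrl. The sources used here do not say whether the counting used strand, so reads of the overlap cannot be assigned between them.

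ROR2, the other receptor of the pair (chromosome 9, 91722601 to 91950228), had 0 counts in all 6 libraries, so its level was at or under the floor in both groups. WNT5A was therefore measured in shPRAME cells together with ROR1 transcripts and in shCtrl cells with ROR1 near the floor, and in neither with a read of ROR2. Among the other receptor tyrosine kinase-like proteins that bind Wnt ligands, RYK and PTK7 were both detected. RYK, chosen after its values were seen, averaged 74.4 ± 1.22 CPM in shPRAME and 69.7 ± 0.494 CPM in shCtrl (log2 fold change 0.09, edgeR adjusted p = 0.00881). PTK7, a co-receptor of the polarity branch, averaged 41.3 ± 1.79 CPM in shPRAME and 2.43 ± 0.179 CPM in shCtrl (log2 fold change 4.08, edgeR adjusted p = 8.68e-18). Of the summed level of ROR1, ROR2, RYK and PTK7 in CPM per kb, ROR1 made up 4.54% to 4.96% in shPRAME libraries and 0.159% to 0.303% in shCtrl libraries. PTK7 made up 25.5% to 27.5% of that sum in shPRAME and 2.16% to 2.48% in shCtrl, and RYK the rest.

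The promoter window of ROR1 is printed because ROR1 had the largest change of the set. Windows run from 250 bases before to 50 bases after a listed start of a gene and come from the RefSeq table of GRCh38.p14. A listed start need not be the outer end of the gene's span. They were searched on both strands for the LEF/TCF motif in its 4 spellings, CTTTGAA or CTTTGAT or CTTTGTA or CTTTGTT, and capitals mark a match. The ROR1 window held none.
ROR1, chr1:63773767-63774066, plus strand: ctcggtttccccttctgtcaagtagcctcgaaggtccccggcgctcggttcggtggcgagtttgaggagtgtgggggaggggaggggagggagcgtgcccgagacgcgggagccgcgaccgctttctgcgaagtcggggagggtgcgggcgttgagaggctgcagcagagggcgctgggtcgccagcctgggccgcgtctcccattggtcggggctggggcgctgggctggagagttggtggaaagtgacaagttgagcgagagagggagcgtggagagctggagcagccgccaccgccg

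**Figure D2:**
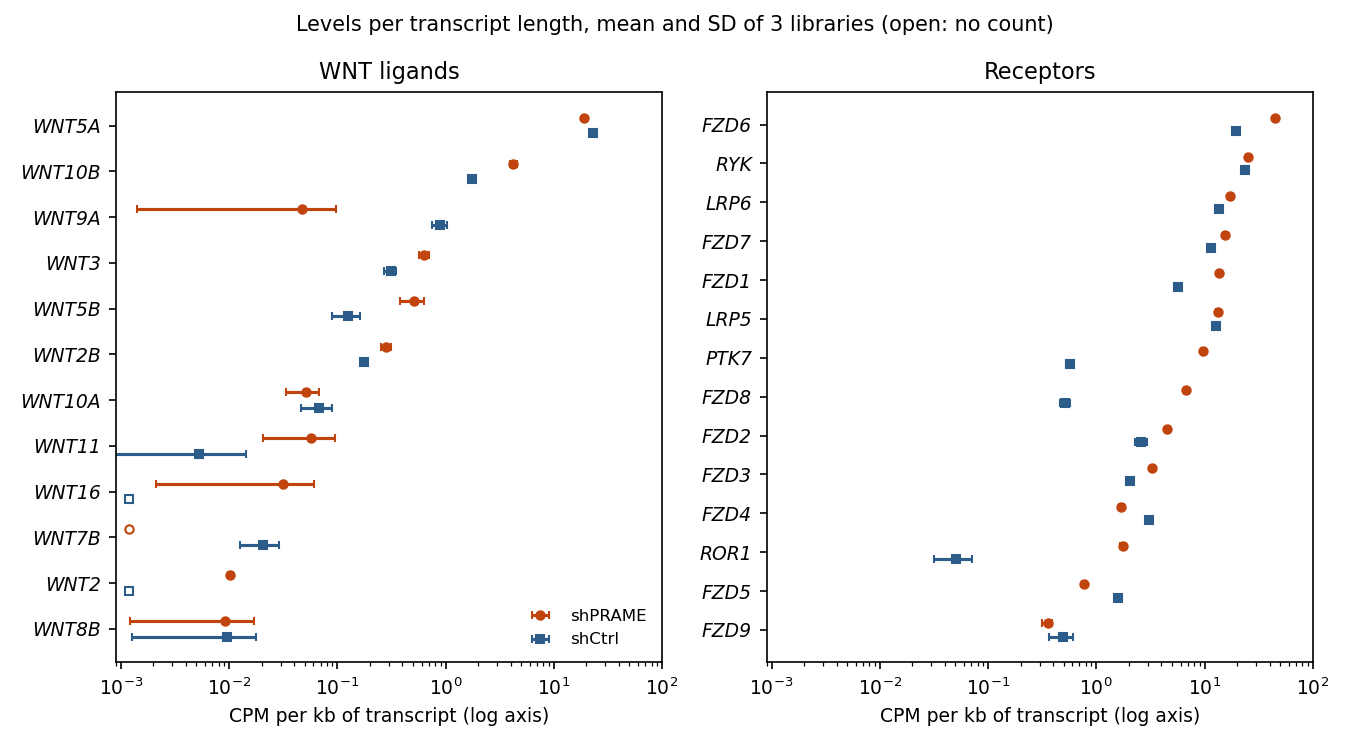
Mean level with SD of 3 libraries, in CPM per kb of transcript on a log axis, of the WNT ligands with a count (left) and of Frizzled, LRP, ROR1, RYK and PTK7 receptors (right), with shPRAME as circles above shCtrl as squares. Open symbols mark 0 counts in a group, and the bar of WNT11 in shCtrl runs past the left edge. Where the SD exceeds the mean, as for WNT9A in shPRAME and WNT11 in shCtrl, the lower bar is cut short to stay above 0. WNT5A leads the ligands in both groups, and ROR1, PTK7 and FZD8 are the receptors set farthest apart.

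The other WNT ligands set WNT5A in context. Of the 17 listed, 7 had no count in any library, and 4 were tested, of which 3 were higher and 1 was lower in shPRAME. WNT10B, a ligand known to act through beta-catenin, averaged 9.62 ± 0.730 CPM in shPRAME and 4.01 ± 0.233 CPM in shCtrl (log2 fold change 1.26, edgeR adjusted p = 2.98e-09). WNT3, another beta-catenin ligand, averaged 2.13 ± 0.231 CPM in shPRAME and 1.04 ± 0.138 CPM in shCtrl (log2 fold change 1.03, adjusted p = 4.27e-05 by edgeR). WNT9A fell to 13, 2 and 3 counts in shPRAME, against 141, 102 and 104 counts in shCtrl (log2 fold change -4.28, edgeR adjusted p = 2.9e-09), and the first shPRAME library was the highest of its group. Without that library the log2 fold change was -5.54, and WNT9A entered the test through its shCtrl libraries, since 1 shPRAME library reached 0.297 CPM. In CPM per kb, WNT5A made up 75.2% to 77.6% of all WNT ligand RNA in shPRAME libraries and 86.8% to 87.8% in shCtrl libraries. WNT10B made up 16.0% to 17.8% in shPRAME and 6.45% to 7.01% in shCtrl, and WNT5B 1.51% to 2.40% in shPRAME and 0.392% to 0.629% in shCtrl. The summed level of the family was 25.1 ± 0.847 CPM per kb in shPRAME and 26.4 ± 0.432 CPM per kb in shCtrl. These shares are descriptions and were not tested.

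The Frizzled receptors, which serve both branches, went both ways. Of 12 Frizzled and LRP genes, 11 were tested, 7 of them higher, 2 lower and 2 not called, with a median log2 fold change of 0.447. Of all tested genes 37.7% were higher, and the list was not tested against them. FZD8 averaged 27.1 ± 0.738 CPM in shPRAME and 2.09 ± 0.231 CPM in shCtrl (log2 fold change 3.69, edgeR adjusted p = 1.52e-16). FZD6 averaged 170.1 ± 1.74 CPM in shPRAME and 74.5 ± 1.88 CPM in shCtrl (log2 fold change 1.19, edgeR adjusted p = 3.31e-16). FZD4 and FZD5 went the other way. FZD4 averaged 12.6 ± 0.724 CPM in shPRAME and 22.8 ± 0.549 CPM in shCtrl, and FZD5 averaged 5.13 ± 0.179 CPM in shPRAME and 10.7 ± 0.251 CPM in shCtrl (log2 fold changes -0.86 and -1.06, edgeR adjusted p = 6.94e-10 and 3.47e-09). The summed Frizzled level was 91.3 ± 0.726 CPM per kb in shPRAME and 47.1 ± 0.159 CPM per kb in shCtrl, and FZD6 made up 49.0% to 49.3% of it in shPRAME and 40.8% to 42.8% in shCtrl. All 6 tested genes of the list of 7 other receptors and co-receptors were called higher in shPRAME, beside 37.7% of all tested genes, from RYK at a log2 fold change of 0.09 upward, and this list too was not tested against other genes. GPC6, a glypican that binds Wnt ligands at the cell surface, had the smallest adjusted p of that list, at 56.9 ± 0.917 CPM in shPRAME and 5.39 ± 0.368 CPM in shCtrl (log2 fold change 3.40, edgeR adjusted p = 2.43e-18).

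The beta-catenin genes hold feedback genes that beta-catenin switches on and the factors that bind DNA for it. AXIN2, a destruction complex scaffold and a widely used readout of beta-catenin activity, had few reads. It had 6, 9 and 6 counts in shPRAME, against 14, 15 and 17 counts in shCtrl (chromosome 17, 65528563 to 65561648), which is 0.192, 0.261 and 0.174 CPM in shPRAME against 0.414, 0.459 and 0.551 CPM in shCtrl. The groups did not overlap. AXIN2 had a log2 fold change of -1.16 with a standard error of 0.366 (edgeR adjusted p = 0.00881), 2.24-fold lower with a 95% interval of 1.31 to 3.83. DESeq2 did not call it (adjusted p = 0.0874), and no shPRAME library passed the level of the filter on low counts, 0.297 CPM.

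NKD1, an inhibitor of Dishevelled that beta-catenin also induces, was lower in shPRAME as well. It had 13, 14 and 16 counts in shPRAME, against 53, 33 and 40 counts in shCtrl (chromosome 16, 50548396 to 50649249), or 0.416, 0.406 and 0.463 CPM in shPRAME against 1.57, 1.01 and 1.30 CPM in shCtrl. The shCtrl libraries spread more widely than the shPRAME libraries but stayed above them. On the log2 scale NKD1 fell by 1.58 with a standard error of 0.251 (edgeR adjusted p = 2.2e-05), 3.00-fold lower with a 95% interval of 2.07 to 4.33.

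DKK1, a secreted antagonist that binds LRP5 and LRP6 and is itself a beta-catenin target, went the other way. DKK1 had 40, 38 and 68 counts in shPRAME, against 8, 7 and 3 counts in shCtrl (chromosome 10, 52314281 to 52317657). These are 1.28, 1.10 and 1.97 CPM in shPRAME, against 0.237, 0.214 and 0.0972 CPM in shCtrl, and the last value lies at the floor of 3 counts. The third shPRAME library was the highest and the third shCtrl library the lowest, and the groups did not overlap. For DKK1 this gave a log2 fold change of 2.95 with a standard error of 0.342 (edgeR adjusted p = 5.55e-07), 7.73-fold higher with a 95% interval of 4.68 to 12.8. The calls of 3 feedback genes of the same branch thus differed in direction: AXIN2 and NKD1 were lower and DKK1 was higher in shPRAME. AXIN2 and DKK1 each met the filter on low counts only through their higher group, and DESeq2 did not call AXIN2.

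The promoter windows that held a LEF/TCF match are printed to show where the motif lies in these beta-catenin genes. Of the 10 genes, 8 had windows in the RefSeq table, 11 windows in all, and 2 windows held a match, DKK1 and the second start of TCF7. AXIN2 and NKD1 had no window and were not searched. DKK1 had CTTTGAA beginning 95 bases and CTTTGTT beginning 76 bases before the start, both on the gene's strand. TCF7 had AACAAAG, which is CTTTGTT on the other strand, at 50 bases before its second start. Of all 35116 windows of 300 bases in the table, 13.8% held at least 1 match and 1.58% at least 2. A match is a description of the letters and not a bound site, and windows of LEF1, TCF7L1, WNT5A, WNT5B, ROR1 and ROR2 held none. All windows of LEF1, WNT5A and TCF7 lie inside the spans given here for these genes. The outer starts of those spans were not searched.
DKK1, chr10:52314031-52314330, plus strand: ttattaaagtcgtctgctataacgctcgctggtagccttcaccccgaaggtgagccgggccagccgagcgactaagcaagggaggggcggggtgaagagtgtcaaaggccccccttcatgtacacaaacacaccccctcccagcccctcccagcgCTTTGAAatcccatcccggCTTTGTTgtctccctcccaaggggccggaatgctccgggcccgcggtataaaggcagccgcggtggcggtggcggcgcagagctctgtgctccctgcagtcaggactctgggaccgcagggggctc
TCF7, chr5:134123368-134123667, plus strand: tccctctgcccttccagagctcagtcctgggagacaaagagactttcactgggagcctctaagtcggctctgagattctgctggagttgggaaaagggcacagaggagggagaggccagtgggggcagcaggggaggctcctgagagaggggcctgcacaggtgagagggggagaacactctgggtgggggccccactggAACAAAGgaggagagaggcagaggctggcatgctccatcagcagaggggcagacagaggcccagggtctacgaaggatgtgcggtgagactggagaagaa

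LEF1, a factor that recruits beta-catenin to DNA and is also its target, was the most abundant of the 10 genes per kb in both groups and was higher in shPRAME. In CPM without length, WNT5A averaged more than LEF1, at 118.6 against 113.4 in shPRAME and 142.0 against 82.7 in shCtrl. LEF1 (gene identifier 51176, chromosome 4, 108047548 to 108168932) had 111.1, 115.9 and 113.0 CPM in shPRAME, against 84.9, 81.9 and 81.4 CPM in shCtrl. The groups were tight and did not overlap. The log2 fold change was 0.45 with a standard error of 0.0298 (edgeR adjusted p = 3.09e-10), 1.37-fold higher with a 95% interval of 1.31 to 1.43. Genes around LEF1 were higher too: the 40 nearest tested coding genes had a median log2 fold change of 0.37, and relative to that median LEF1 stood at 0.08 (adjusted p = 0.0241). The part of the region in the LEF1 difference was not tested further. The overlapping genes LEF1-AS1 and LOC124900752 had at most 18 and 36 counts in any library and were not called.

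TCF7L1, which mostly acts as a repressor when beta-catenin is absent, was higher in shPRAME. It had 407, 446 and 458 counts in shPRAME, against 200, 161 and 141 counts in shCtrl (chromosome 2, 85133392 to 85310387), or 13.0, 12.9 and 13.3 CPM in shPRAME against 5.91, 4.92 and 4.57 CPM in shCtrl. All 3 shPRAME libraries lay within a narrow band above the shCtrl libraries. On the log2 scale TCF7L1 rose by 1.34 with a standard error of 0.0916 (edgeR adjusted p = 5.39e-10), 2.54-fold higher with a 95% interval of 2.22 to 2.90.

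TCF7, a LEF1 relative best known in T cells, was the tested gene without a call. It had 56, 94 and 71 counts in shPRAME, against 86, 74 and 93 counts in shCtrl (chromosome 5, 134108218 to 134148210), or 1.79, 2.73 and 2.06 CPM in shPRAME against 2.54, 2.26 and 3.01 CPM in shCtrl. The groups overlapped, with the second shPRAME library above 2 of the shCtrl libraries. The log2 fold change was -0.24 with a standard error of 0.168 (edgeR adjusted p = 0.2) and a 95% interval of -0.60 to 0.11, which leaves room for a drop of up to 1.51-fold. Without the second shPRAME library it was -0.43 and called (edgeR adjusted p = 0.0424). The 40 nearest coding genes had a median log2 fold change of -0.34, against which TCF7 stood at 0.10 (adjusted p = 0.616), the opposite sign. TCF7 shares 6323 annotated bases with VDAC1, a mitochondrial channel gene at 278.3 CPM in shPRAME and 369.7 CPM in shCtrl. VDAC1 was itself lower (log2 fold change -0.41, edgeR adjusted p = 6.18e-11), and its part in the TCF7 counts was not tested.

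**Figure D3:**
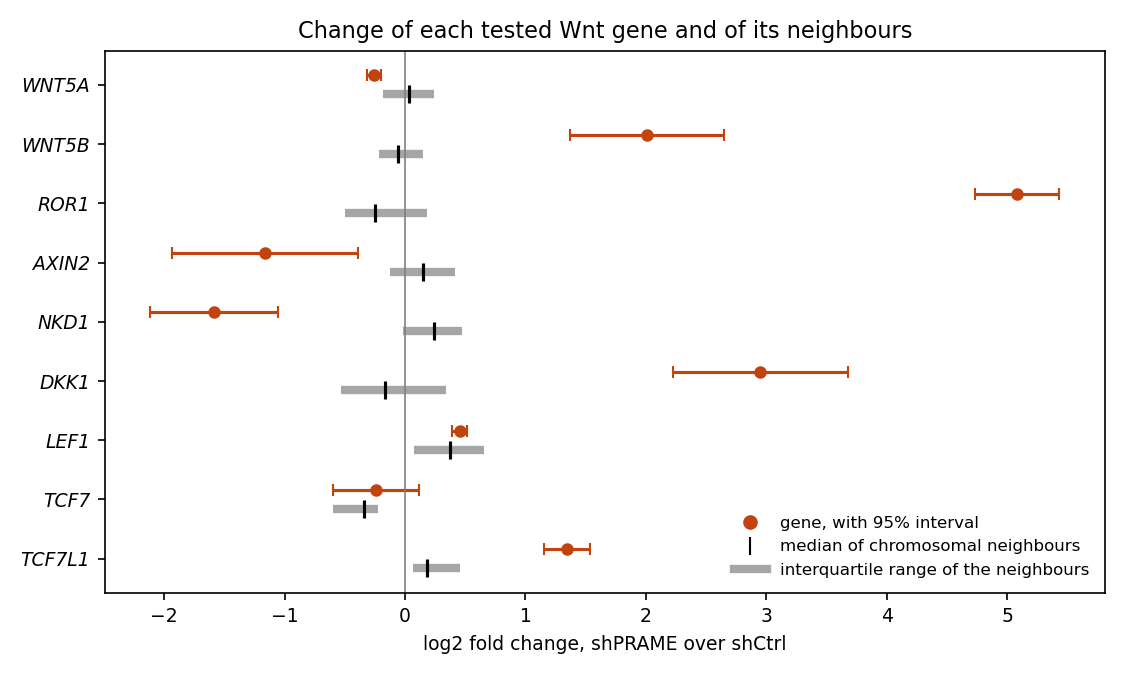
Log2 fold change of shPRAME over shCtrl with its 95% interval for the 9 tested genes, and beneath each the median and the interquartile range of the log2 fold changes of its nearest tested coding genes. ROR1 at 5.08, DKK1 at 2.95 and WNT5B at 2.01 lie far from neighbours whose medians lie between -0.25 and -0.06, whereas LEF1 and TCF7 lie within the interquartile range of their neighbours.

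The LEF/TCF family kept its order. In CPM per kb, LEF1 made up 57.2% to 58.8% of the summed level of LEF1, TCF7, TCF7L1 and TCF7L2 in shPRAME libraries and 57.5% to 59.0% in shCtrl libraries, ranges that overlap. TCF7L1 made up 7.68% to 7.90% in shPRAME and 3.78% to 4.82% in shCtrl, and TCF7 0.964% to 1.44% in shPRAME and 1.68% to 2.22% in shCtrl. The summed level was 56.4 ± 0.474 CPM per kb in shPRAME and 40.9 ± 0.437 CPM per kb in shCtrl. Set in order of CPM per kb in shPRAME, the 9 detected genes ran LEF1 (32.6), WNT5A (19.2), TCF7L1 (4.40), ROR1 (1.75), DKK1 (0.810), TCF7 (0.658), WNT5B (0.508), AXIN2 (0.0490) and NKD1 (0.0250). In shCtrl they ran LEF1 (23.8), WNT5A (23.0), TCF7L1 (1.73), TCF7 (0.783), WNT5B (0.126), AXIN2 (0.111), DKK1 (0.102), NKD1 (0.0755) and ROR1 (0.0510). DKK1 and TCF7, and TCF7 and WNT5B, overlapped between libraries in shPRAME. WNT5B, AXIN2 and DKK1 overlapped one another in shCtrl, as did DKK1, NKD1 and ROR1, so the place of DKK1 among them is not settled. The level of NKD1 depends on its annotated transcript of 17105 bases, the longest used here. The order of LEF1 and WNT5A also depends on the lengths used.

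The other genes of the pathway were read from 12 lists of 156 genes, of which 114 were tested. Of these 61 were higher, 39 lower and 14 not called, so that 87.7% were called beside 74.4% of all tested genes, and the median log2 fold change was 0.183 beside 0.006. No statement that the pathway stands apart follows from these counts. In 9 of the 114 tested genes, WNT9A, TRABD2A, RSPO2, LGR5 and PRICKLE1 among them, fewer than 3 libraries of the lower group reached 0.297 CPM, so their entry into the test rested in part or wholly on the higher group.

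Genes that act on ligands outside the cell or on their way out went both ways. For secretion and processing, 2 of 4 tested genes were higher and 2 lower. PORCN, the acyltransferase that lipid-modifies Wnt proteins, averaged 6.66 ± 0.484 CPM in shPRAME and 15.6 ± 1.21 CPM in shCtrl (log2 fold change -1.23, edgeR adjusted p = 3.59e-10). WLS, which carries them to the cell surface, averaged 75.8 ± 1.35 CPM in shPRAME and 93.0 ± 1.13 CPM in shCtrl (log2 fold change -0.29, edgeR adjusted p = 7.4e-08), so both genes of ligand export moved in the same direction as WNT5A. WLS was not called against a fold of 1.2 (edgeR adjusted p = 0.0983) and stood at -0.11 relative to its chromosomal neighbours. TRABD2A and TRABD2B, membrane proteases that inactivate Wnt proteins, were higher, with TRABD2A at 6.53 ± 0.173 CPM in shPRAME and 0.536 ± 0.298 CPM in shCtrl and TRABD2B at 22.2 ± 0.639 CPM in shPRAME and 12.0 ± 0.514 CPM in shCtrl (edgeR adjusted p = 7.89e-11 and 3.49e-10). Of the secreted antagonists and their receptors, 4 of 15 were tested, 2 higher and 2 lower. SFRP1, which binds Wnt ligands directly, was by far the most abundant, at 1010.0 ± 7.46 CPM in shPRAME and 423.6 ± 6.84 CPM in shCtrl (log2 fold change 1.25, edgeR adjusted p = 1.19e-17). KREMEN1, a DKK1 receptor, averaged 30.4 ± 0.551 CPM in shPRAME and 19.5 ± 0.537 CPM in shCtrl, and DKK3, a relative of DKK1, averaged 5.41 ± 0.694 CPM in shPRAME and 9.58 ± 0.342 CPM in shCtrl (edgeR adjusted p = 1.66e-09 and 8.57e-07). LRP6, a target of DKK1 chosen after its values were seen, averaged 172.7 ± 5.53 CPM in shPRAME and 135.8 ± 3.78 CPM in shCtrl (edgeR adjusted p = 1.26e-08). LRP5, which DKK1 also binds, averaged 69.1 ± 3.06 CPM in shPRAME and 66.1 ± 2.39 CPM in shCtrl and was not called (edgeR adjusted p = 0.141).

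In the R-spondin and LGR module, which amplifies Wnt responses, 4 of 9 genes were tested, 3 higher and 1 lower. RSPO2, a secreted R-spondin, had 58, 86 and 69 counts in shPRAME and 0 in each shCtrl library, at least 68.9-fold higher against a floor of 3 counts over the shCtrl group. Its receptor LGR5, itself a known beta-catenin target and chosen after its values were seen, had 48, 63 and 46 counts in shPRAME and 0 in each shCtrl library, at least 50.8-fold higher against the same floor. LGR4, the related receptor, averaged 8.94 ± 0.109 CPM in shPRAME and 17.0 ± 1.09 CPM in shCtrl (log2 fold change -0.93, edgeR adjusted p = 1.72e-09). ZNRF3, a ligase that removes Frizzled receptors from the surface, averaged 18.8 ± 0.825 CPM in shPRAME and 14.6 ± 0.976 CPM in shCtrl (log2 fold change 0.36, edgeR adjusted p = 6.38e-05), and at 0.22 relative to its neighbours.

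Inside the cell both directions were again present. Of 7 tested Dishevelled genes and cytoplasmic transducers, 4 were higher, 2 lower and 1 not called. DVL3, a Dishevelled, averaged 64.3 ± 0.536 CPM in shPRAME and 48.5 ± 3.19 CPM in shCtrl, and CXXC5, a Dishevelled-binding inhibitor, 33.2 ± 0.770 CPM in shPRAME and 24.1 ± 1.42 CPM in shCtrl (edgeR adjusted p = 9.75e-08 and 2.3e-07). The log2 fold change of CXXC5 was 0.46, and 0.78 relative to its neighbours. DACT1, another Dishevelled-binding protein, fell to 4.40 ± 0.313 CPM in shPRAME, against 19.5 ± 2.07 CPM in shCtrl (log2 fold change -2.14, edgeR adjusted p = 8.58e-13). All 16 genes of the destruction complex list were tested, 8 higher, 5 lower and 3 not called. CTNNB1, which encodes beta-catenin itself and was chosen after its values were seen, averaged 247.3 ± 1.71 CPM in shPRAME and 253.1 ± 5.12 CPM in shCtrl and was not called (log2 fold change -0.03, edgeR adjusted p = 0.22). GSK3B, the kinase that marks beta-catenin for degradation, averaged 379.7 ± 13.4 CPM in shPRAME and 163.0 ± 4.01 CPM in shCtrl (log2 fold change 1.22, edgeR adjusted p = 3.42e-16). CSNK1D was higher (log2 fold change 0.52), whereas CSNK1A1, the priming kinase of beta-catenin, and FBXW11, a ubiquitin ligase subunit, were both lower (log2 fold changes -0.43 and -0.43, edgeR adjusted p = 3.36e-11 and 6.82e-10). Relative to its neighbours CSNK1A1 stood at -0.10 (edgeR adjusted p = 0.000864).

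Among the nuclear cofactors, 8 of 16 tested genes were higher, 5 lower and 3 not called. TLE1, a co-repressor that LEF/TCF factors recruit, averaged 85.2 ± 1.76 CPM in shPRAME and 37.1 ± 1.55 CPM in shCtrl (edgeR adjusted p = 9e-15). Its relatives TLE3 and TLE5 were lower, at 33.8 ± 1.38 and 47.3 ± 0.878 CPM in shPRAME and 52.7 ± 2.38 and 88.7 ± 1.66 CPM in shCtrl. The other listed relatives, chosen after their values were seen, were TLE2, which was lower, and TLE4, which was higher (log2 fold changes -2.07 and 0.81). BCL9, a co-activator that binds beta-catenin, averaged 70.8 ± 0.974 CPM in shPRAME and 52.0 ± 1.69 CPM in shCtrl (log2 fold change 0.45, edgeR adjusted p = 2.07e-09). Of the further direct targets, 12 of 14 were tested, 7 higher, 3 lower and 2 not called. Among all tested genes 37.7% were higher and 36.8% lower, and these targets were not tested against them. EPHB2, a receptor for ephrin-B ligands, averaged 98.8 ± 5.25 CPM in shPRAME and 9.42 ± 0.138 CPM in shCtrl (log2 fold change 3.39, edgeR adjusted p = 8.25e-19), and NRCAM, a cell adhesion protein, 29.2 ± 1.57 CPM in shPRAME and 7.31 ± 0.136 CPM in shCtrl. BAMBI, a TGF-beta pseudoreceptor, averaged 90.4 ± 2.57 CPM in shPRAME and 252.3 ± 5.85 CPM in shCtrl (log2 fold change -1.48, edgeR adjusted p = 2.76e-17), and SOX9, a neural crest factor, 195.4 ± 4.21 CPM in shPRAME and 282.5 ± 6.80 CPM in shCtrl.

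Downstream of the WNT5A-ROR genes, the planar polarity list had 8 of 16 tested genes higher, 7 lower and 1 not called. PRICKLE1, a core polarity protein, had 482, 514 and 557 counts in shPRAME, against 6, 6 and 12 counts in shCtrl (log2 fold change 5.95, edgeR adjusted p = 2.03e-15), while its relative PRICKLE2 averaged 24.9 ± 1.36 CPM in shPRAME and 50.2 ± 2.61 CPM in shCtrl (log2 fold change -1.01, edgeR adjusted p = 5.25e-12). DAAM2, a formin that links Dishevelled to actin, averaged 55.8 ± 1.27 CPM in shPRAME and 28.2 ± 1.46 CPM in shCtrl, and the small GTPase RAC1 364.3 ± 4.45 CPM in shPRAME and 475.1 ± 17.1 CPM in shCtrl. RAC1 had a log2 fold change of -0.38, and of -0.20 relative to its neighbours. The calcium list had 3 of 14 tested genes higher, 9 lower and 2 not called, with a median log2 fold change of -0.27. Of all tested genes 36.8% were lower and the median was 0.006, and the list was not tested against them. NFATC2 and NFAT5, transcription factors of the NFAT family, were lower, NFATC2 at 131.7 ± 0.732 CPM in shPRAME and 207.6 ± 3.41 CPM in shCtrl and NFAT5 at 173.8 ± 2.12 CPM in shPRAME and 235.1 ± 6.45 CPM in shCtrl (edgeR adjusted p = 2.01e-13 and 9.43e-11). PLCB1 and PLCB4, phospholipases C, were slightly higher (log2 fold changes 0.12 and 0.34, edgeR adjusted p = 0.0268 and 0.00014), but relative to their chromosomal neighbours they stood at -0.30 and -0.08. PLCB1 lost its call with DESeq2 (adjusted p = 0.13) and without the first or the second shCtrl library (edgeR adjusted p = 0.0708 and 0.0678), and neither gene was called against a fold of 1.2 (edgeR adjusted p = 1 for PLCB1 and 0.0815 for PLCB4).

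**Figure D4:**
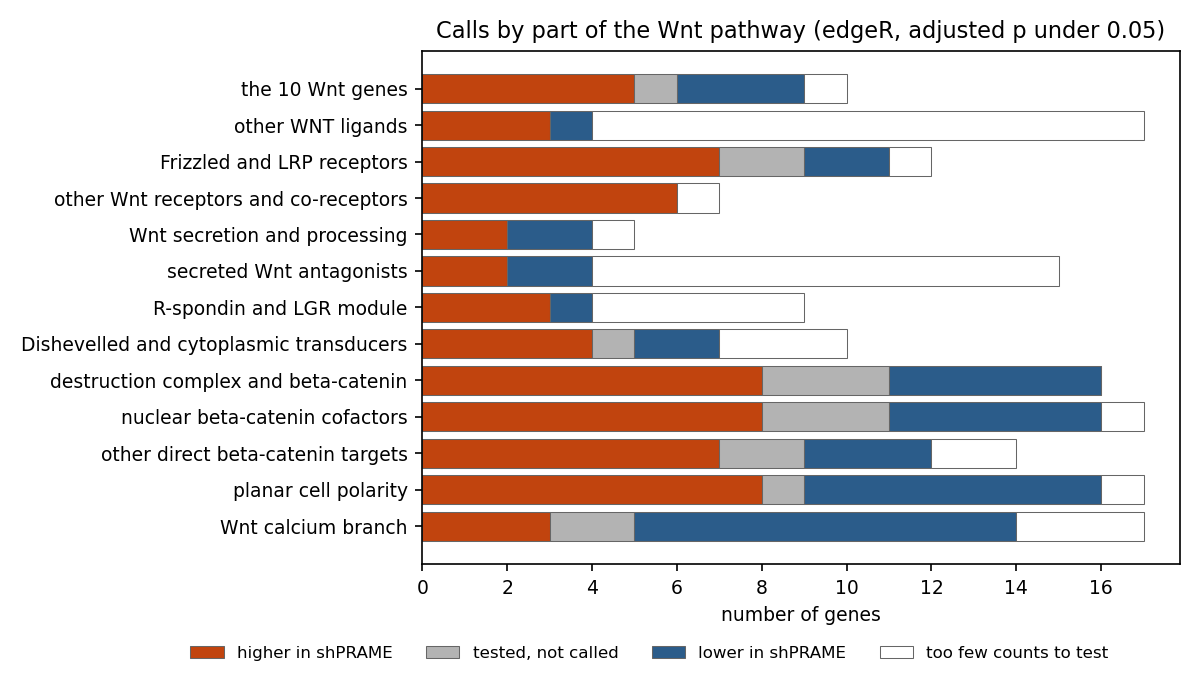
Number of genes higher in shPRAME, tested and not called, lower in shPRAME and too low to test, for the 10 Wnt genes and for each of the 12 pathway lists. Genes of both directions occur in every list with a lower call, and the list of other receptors and co-receptors has 6 genes higher and none lower.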

How the data were processed

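Whole-number counts per NCBI gene identifier were deposited by the authors, 1 file per library and not normalized, as the values themselves show. The tools fastp, STAR and Salmon and the builds hg38 and GRCh38 appear in the submitters' processing notes, without versions or roles. The sources used here do not give the counting tool, its annotation or its use of strand. Rows with a repeated identifier, 34 of 40929, were summed, and 40789 identifiers matched RefSeq (GRCh38.p14), which gave symbols and coordinates. Lengths are those of the longest coding transcript of GENCODE release 29.

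The test on these counts was that of edgeR 4.0.16 (R 4.3.3; filterByExpr with a minimum count of 10, TMM factors of 0.978 to 1.02, glmQLFit and glmQLFTest, 2-sided, group as the only term), with Benjamini-Hochberg adjustment over all 15954 tested genes. Standard errors were obtained from the log2 fold change and its quasi-likelihood F statistic. The test was checked on simulated counts. The spread within groups gave a biological coefficient of variation of 3.11%, and no libraries were duplicates (chi-square per gene of 2.48 to 8.20 between libraries of a group).

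The 10 genes, the 12 pathway lists and the tests were chosen with earlier results of these data known. Named pathway genes are up to 2 per list and direction with the smallest adjusted p at a mean of at least 1 CPM. Same-numbered libraries did not deviate together (correlations of -0.016 to -0.068 over 10702 genes), so the numbers were not used as pairs. Alternatives were RLE size factors, library totals only, no filter, at least 1 CPM in 3 libraries, DESeq2 1.42.0, limma-voom (limma 3.58.1), a test against a fold of 1.2, the replicate number as a block, leaving out each library, and the change relative to up to 20 tested coding genes on each side.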

Additional observations from a re-analysis of the deposited data

How the results depend on the processing

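The counts of called genes and of called Wnt genes moved by more than 1.5 times under 3 settings. With at least 1 CPM required in 3 libraries, WNT5B, AXIN2 and NKD1 were no longer tested, which left 1 WNT5A-ROR gene higher, 0 beta-catenin genes lower and 1 of the 10 genes lower (for the beta-catenin genes also 0 at an unadjusted p under 0.05 by edgeR, with TCF7 the only lower one still tested; DESeq2 and limma-voom were run without this filter). DESeq2 left 1 beta-catenin gene lower, since AXIN2 lost its call at an adjusted p of 0.0874; over the alternatives AXIN2 ranged from 0.00412 to 0.0874. Against a fold of 1.2, 3921 genes were higher and 3805 lower, and 0 WNT5A-ROR genes were lower (also 0 at an unadjusted p under 0.05 by edgeR, and no other tool was run against that fold), since WNT5A itself was 1.197-fold lower. Relative to chromosomal neighbours, TCF7 stood at 0.10, PLCB4 at -0.08 and PLCB1 at -0.30, each with the opposite sign, and the cause was not tested. With the replicate number as a block, 5868 genes were higher and 5735 lower, and 5 and 3 of the 10 Wnt genes, as without it. Leaving out 1 library at a time gave 3 to 4 of the 10 genes lower and 2 to 3 beta-catenin genes lower, the upper values without the second shPRAME library through TCF7. The scale of AXIN2, DKK1, WNT5B and ROR1 in their low group is limited by depth, at 3 to 14 counts per library. NKD1 had 13 to 16 counts per library in its low group.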
